A study of Mus musculus with 6 samples.

Results

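In the deposited miRNA tables, 10 rows belong to miR-375, miR-128, miR-9, miR-124, miR-216a and miR-217, miRNAs best known from neurons, endocrine cells and the pancreas. They are the rows whose name begins with one of these 6 miRNA names, and make up 10 of the 984 mature miRNAs listed. The tissue was heart muscle (myocardium) of mice, taken at a post-mortem interval (the time from death to sampling) of 6 d or 0 h, with 3 small RNA libraries at each interval. All 6 libraries came from total RNA of the same labelled tissue. The labels used here give no strain, age or sex and name no animal for any library, so p-values describe how far these libraries spread, and that spread may be technical.

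A miRNA is cut from a hairpin precursor and can be read from its 5p or its 3p arm. The loaded arm guides an Argonaute protein to messenger RNAs that pair with its seed, bases 2 to 8. miR-375 is enriched in pancreatic islets and other hormone-secreting cells, where it restrains insulin secretion. miR-216a and miR-217 lie close together in the genome and are enriched in the acinar cells of the pancreas. miR-124 is the most abundant miRNA of mature neurons, miR-9 is made in neural progenitors and neurons from 3 hairpins, and miR-128 is enriched in brain and is also found in muscle. The heart holds nerve fibres and small ganglia, but it is neither a neural nor an endocrine organ in its bulk.

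RefSeq's table for GRCm38.p6 held the mature sequence of 7 of the 10 rows. Those below are shown, with the seed in capitals, because the levels and arm ratios that follow are of rows with these names. How closely a counted read had to match these letters is not given in the sources used here.
miR-128-3p: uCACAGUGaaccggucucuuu
miR-9-5p: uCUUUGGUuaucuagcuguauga
miR-9-3p: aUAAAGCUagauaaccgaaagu
miR-217-5p: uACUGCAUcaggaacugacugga
miR-216a-5p: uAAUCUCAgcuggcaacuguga
No 2 of the 7 shared a seed, and no other deposited row with a sequence in the table (851 of 984 rows had one) carried the same seed as any of them. miR-375-3p, miR-124-3p and miR-124-5p are given by name.

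The strand of miR-128-3p is encoded at chr1:128202404-128202424 in an intron of R3hdm1 and, on the minus strand, at chr9:112118644-112118664 in an intron of Arpp21. Both copies give identical letters, so its reads cannot be assigned to one gene. Only miR-128-1-5p, at chr1:128202369-128202389, marks a single one of them. miR-9-5p and miR-9-3p likewise come from 3 hairpins with identical mature strands, at chr3:88215613-88215635, chr7:79505279-79505301 and chr13:83738821-83738843 for the 5p arm. The first lies in an intron of the lincRNA Gm3764, the second in an intron of Mir9-3hg and the third overlaps an exon of C130071C03Rik. miR-217-5p, at chr11:28763761-28763783, and miR-216a-5p, at chr11:28757018-28757039, lie in introns of the lincRNA Gm12082. These coordinates and genes are those of GRCm38 (RefSeq and GENCODE M21), since the build used for the deposited values is not given in the sources used here.

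The 7 seed letters of miR-128-3p also occur, shifted by 1 base, in 3 other deposited miRNAs. They are shown to set the strands apart, with the shared letters in capitals.
miR-128-3p: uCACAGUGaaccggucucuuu
miR-216a-3p: CACAGUGgucucugggauuaug
miR-27b-3p: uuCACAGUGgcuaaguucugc
The third was miR-27a-3p.

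The libraries held 617069 to 1889594 miRNA reads at 6 d and 4468547 to 7906557 at 0 h. Levels are given as normalised CPM, CPM over all miRNA reads divided by the library's own scaling factor, as in the files deposited on a log2 scale. 0 h replicate 1 was deposited as read counts without a factor. Its factor was derived by assuming that the factors of all libraries multiply to 1. A floor of 3 reads was worth 1.91 to 3.97 normalised CPM at 6 d and 0.463 to 0.73 at 0 h, and covers counting error only. The factor of 6 d replicate 3 was 1.796, against 0.831 and 1.080 in the other 6 d libraries and 0.760 to 0.919 at 0 h, so its levels are lower on this scale than as plain CPM. Of 7 cardiac and skeletal muscle miRNAs all were detected in every library. Their summed level, nearly all of it miR-1a-3p, was 114428 to 537146 normalised CPM at 6 d and 257020 to 491702 at 0 h. It was lowest in 6 d replicate 3. Of 470 miRNAs that passed a filter of at least 1 normalised CPM in at least 3 libraries, limma called 178 (37.9%) at a Benjamini-Hochberg adjusted p under 0.05, 75 higher (16.0%) and 103 lower (21.9%) at 6 d. With reads divided by library totals alone the split was 83 higher and 40 lower. edgeR called 151 of 363 miRNAs (41.6%), 80 higher (22.0%) and 71 lower (19.6%).

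That filter kept 5 of the 10 miRNAs, mmu-miR-375-3p, mmu-miR-128-3p, mmu-miR-9-5p, mmu-miR-9-3p and mmu-miR-217-5p. Of these 5, limma called 1 higher at 6 d, miR-375-3p (against 16.0% of all tested), and 1 lower, miR-128-3p (against 21.9%). The other 5 were at or near the floor of 3 reads in most libraries and were not tested. Relative levels were measured, so fewer cells of a type, less RNA per cell and a change of all other miRNAs cannot be told apart in these bulk samples. At 6 d the order by mean level was miR-128-3p, miR-9-5p, miR-375-3p, miR-9-3p and miR-217-5p, and at 0 h miR-375-3p stood below miR-9-3p. The ranges of miR-375-3p and miR-9-3p overlapped at 6 d, as did those of miR-9-5p with miR-128-3p and with miR-9-3p, while at 0 h none of these pairs overlapped.

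**Figure D1:**
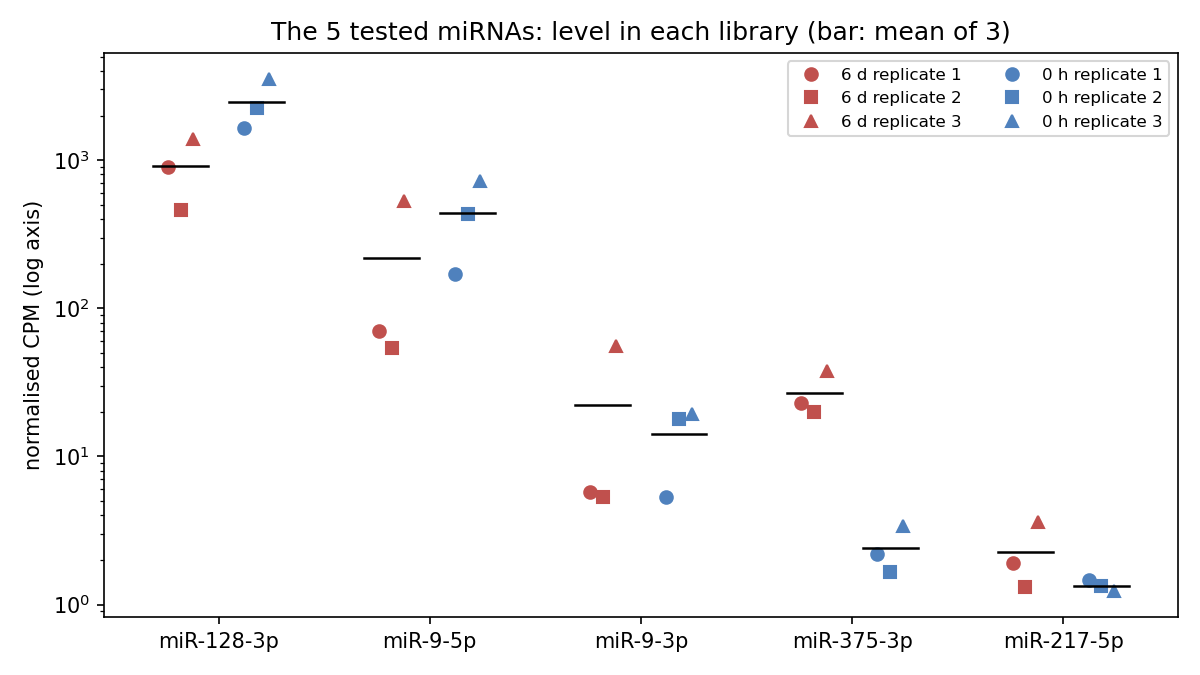
Normalised CPM on a log axis for each of the 5 tested miRNAs in the 3 libraries of 6 d (red) and the 3 of 0 h (blue), with a bar at each mean. The groups do not overlap for miR-375-3p, higher at 6 d, and for miR-128-3p, lower at 6 d, and 6 d replicate 3 is the highest 6 d library for all 5.

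miR-375-3p, the islet and neuroendocrine miRNA, had 22.9, 19.9 and 37.9 normalised CPM in the 6 d libraries, against 2.19, 1.66 and 3.4 at 0 h. Every 6 d library lay above every 0 h library, a separation in this direction that 19.8% of all tested miRNAs shared. The mean was 26.9 ± 9.66 at 6 d and 2.42 ± 0.888 at 0 h (SD, n = 3 each), 11.1-fold higher at 6 d. The fold change was 3.01 ± 0.42 (SE, limma adjusted p = 0.00072) as log2(value + 1), a scale that compresses differences at low levels. By edgeR on whole reads it was 3.61 (edgeR adjusted p = 0.00043).

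These are small numbers of molecules. The reads of miR-375-3p were 36, 15 and 42 in the 6 d libraries and 9, 10 and 22 at 0 h. At the depth of the smallest library, 617069 reads, the expected reads would be 11.8, 13.2 and 42 at 6 d and 1.24, 0.78 and 1.86 at 0 h. Pooled over libraries, miR-375-3p had 29 CPM at 6 d and 2.08 CPM at 0 h, a ratio of 13.9 with a 95% exact interval of 9.54 to 20.6 that covers counting error only. The ratio was 9.45 without 6 d replicate 3 and 20.8 without 6 d replicate 1.

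The same direction was seen in miRNAs of epithelia, a tissue that also holds endocrine cells. Of 7 epithelial miRNAs 6 were called higher and none lower at 6 d, against 16.0% and 21.9% of all tested. Their median log2 fold change was 4.31, against -0.33 over all tested. The exception was miR-203-3p, at -0.26 (limma adjusted p = 0.72). The summed level of the list was 1408 to 2579 normalised CPM at 6 d and 139 to 439 at 0 h. Of these 7, miR-429-3p was at 0 in 0 h replicate 1. The liver miRNA miR-122-5p, the 1 tested of 2 listed, had 2086, 23460 and 16716 normalised CPM at 6 d and 702, 668 and 1406 at 0 h. Its passenger strand miR-122-3p was at 0 in all but 6 d replicate 3. miR-206-3p, a miRNA of skeletal muscle, had 979, 1440 and 685 normalised CPM at 6 d and 15.3, 12.8 and 8.34 at 0 h. The 7 cardiac and skeletal muscle miRNAs as a list did not share its direction, with 3 called higher, 2 lower and a median log2 fold change of -0.33. The part of other tissues in the rise of miR-375-3p was not tested.

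The log2 fold change of 3.01 of miR-375-3p stood below that of 6.00 of miR-200a-3p, a miRNA of epithelial cells. The log2 ratio of miR-375-3p to miR-200a-3p reads was -5.43, -4.60 and -3.86 in the 6 d libraries, against -2.32, -2.03 and -1.43 at 0 h, without overlap. The difference of -2.70 had an exact two-sided permutation p of 0.1 and an adjusted one of 0.13 over the 4 ratios compared. No smaller p than 0.1 is possible with 3 libraries in each group, and ratios of other pairs without overlap were not counted.

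miR-217-5p, one of the pancreatic pair, had 1.91, 1.32 and 3.61 normalised CPM at 6 d and 1.46, 1.33 and 1.23 at 0 h. These levels rest on 3, 1 and 4 reads at 6 d and 6, 8 and 8 at 0 h, and the groups overlapped. The log2 fold change was 0.43 ± 0.42 (SE, n = 3 each, limma adjusted p = 0.44). The pooled 6 d level was 2.23 times the 0 h level (95% exact interval 0.859 to 5.2, counting error only). It was 1.38 times without 6 d replicate 3 and 3.4 times without 6 d replicate 1, and a difference was not detectable at this depth. miR-216a-5p had 1 read in all, in 6 d replicate 3. miR-216a-3p had 0 reads at 6 d and 0, 1 and 2 at 0 h, and 0 of 3206333 reads at 6 d allows up to 0.936 CPM, above its pooled 0 h level of 0.152. A difference in miR-216a was therefore not detectable at this depth.

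Of 9 other miRNAs linked to endocrine cells or pancreas, all had a row and 6 were tested. Of these, 3 were called higher at 6 d, miR-7a-5p, miR-141-3p and miR-200a-3p (against 16.0% of all tested), and 1 lower, miR-184-3p (against 21.9%). Their median log2 fold change was 0.73, against -0.33 over all tested. miR-141-3p and miR-200a-3p, with the largest log2 fold changes of 4.09 and 6.00, also stand in the epithelial list. The others tested lay on both sides of 0, miR-7a-5p at 1.25, miR-7a-1-3p at 0.21, miR-153-3p at -0.20 and miR-184-3p at -1.41. miR-7a-5p, abundant in islets and in neurons, had 1275, 1281 and 702 normalised CPM at 6 d and 534, 482 and 333 at 0 h (log2 fold change 1.25, limma adjusted p = 0.022). The acinar miR-216b-5p had 0, 0 and 1 read at 6 d and 1, 3 and 2 at 0 h, and was not tested.

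miR-128-3p, the brain-enriched miRNA, was by far the most abundant of the 10. It had 899, 460 and 1393 normalised CPM at 6 d and 1657, 2243 and 3548 at 0 h. All 6 d libraries lay below all 0 h libraries, a direction without overlap that 30.9% of tested miRNAs shared, and 6 d replicate 3 came closest to the 0 h range. The mean was 918 ± 467 at 6 d and 2483 ± 968 at 0 h (SD, n = 3 each), and the log2 fold change -1.50 ± 0.45 (SE, limma adjusted p = 0.026), or -1.17 relative to the median of all tested miRNAs.

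Some other miRNAs of the heart wall were lower at 6 d as well. The endothelial miR-126a-3p had 34088, 26358 and 24644 normalised CPM at 6 d and 56304, 71219 and 87560 at 0 h (log2 fold change -1.33, limma adjusted p = 0.0095), and nearly alone made up the sum of the 2 listed endothelial miRNAs, 25279 to 35076 at 6 d and 56921 to 88648 at 0 h. The other arm of its precursor, miR-126a-5p, had 989, 841 and 635 normalised CPM at 6 d and 617, 826 and 1088 at 0 h (log2 fold change -0.02, limma adjusted p = 0.96). Of the 7 muscle miRNAs, miR-208a-3p and miR-499-5p, both encoded in cardiac myosin genes, were called lower, at -1.49 and -1.48, and miR-133a-3p, miR-133b-3p and miR-206-3p higher. Their part in the fall of miR-128-3p was not tested.

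The call of miR-128-3p depended on the scaling. As plain CPM, with reads divided by library totals alone, it had 748, 497 and 2502 at 6 d and 1524, 1706 and 3147 at 0 h, so that 6 d replicate 3 fell within the 0 h range and the fold change of -1.04 was not called (limma adjusted p = 0.24). It was also not called by edgeR (log2 fold change -1.28, edgeR adjusted p = 0.051) or without 0 h replicate 2, 0 h replicate 3 or 6 d replicate 2 (limma adjusted p = 0.064, 0.083 and 0.076), and its adjusted p ranged from 0.0025 to 0.24 over 16 alternatives. In share of all miRNA reads it made up 0.125% ± 0.109 at 6 d and 0.213% ± 0.089 at 0 h (SD, n = 3 each). The other arm of the R3hdm1 copy, miR-128-1-5p, had 0 reads in all 6 d libraries and 1, 2 and 2 at 0 h. Its pooled 0 h level of 0.254 CPM is under the limit of 0.936 that 0 reads allow at 6 d.

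miR-9-5p, made in neural progenitors and neurons, had 70, 54.3 and 532 normalised CPM in the 6 d libraries and 171, 430 and 721 at 0 h. The first and second 6 d libraries lay below the whole 0 h range, and 6 d replicate 3 lay inside it. The mean was 219 ± 272 at 6 d and 441 ± 275 at 0 h (SD, n = 3 each), and limma did not call the log2 fold change of -1.56 ± 0.83 (SE, limma adjusted p = 0.18). By edgeR it was -0.81 (edgeR adjusted p = 0.46) and by DESeq2 -0.78 (DESeq2 adjusted p = 0.52). Without 6 d replicate 3 it was -2.59 (limma adjusted p = 0.0061). Over 16 alternatives the adjusted p ranged from 0.004 to 0.52.

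miR-9-3p, the other arm of the same hairpins, had 5.73, 5.29 and 56 normalised CPM at 6 d and 5.36, 18 and 19.3 at 0 h. Here 6 d replicate 3 was the highest of all 6 libraries, and the other 6 d libraries stood next to 0 h replicate 1. The mean was 22.3 ± 29.1 at 6 d and 14.2 ± 7.69 at 0 h (SD, n = 3 each), and the log2 fold change -0.01 ± 0.85 (SE, limma adjusted p = 1). Its reads were 9, 4 and 62 at 6 d and 22, 108 and 125 at 0 h.

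The balance of the miR-9 arms, which does not depend on how a library is scaled, separated the intervals. With 1 read added to each arm, there were 11.1, 8.4 and 9.38 reads of miR-9-5p for each read of miR-9-3p in the 6 d libraries, against 30.7, 23.7 and 37.1 at 0 h. All 6 d ratios lay below all 0 h ratios, and 6 d replicate 3, which stood apart in the level of both arms, lay between the other 6 d libraries. The log2 ratio was 3.26 ± 0.20 at 6 d and 4.91 ± 0.32 at 0 h (SD, n = 3 each). It was lower at 6 d by a difference of -1.65 ± 0.41 (SE, limma adjusted p = 0.016 over 116 precursors with both arms tested). Of those precursors 45 (38.8%) changed their ratio, 23 of them (19.8%) toward the 3p arm. How many of them had ratios without overlap between the intervals was not counted. The call of miR-9 was lost without 0 h replicate 1 (difference -1.63, limma adjusted p = 0.061), and adjusted p ranged from 0.0044 to 0.061 over 10 alternatives. The 3p arm made up 9.19% of the reads of both arms pooled at 6 d and 3.1% at 0 h, and 2 of the 6 d libraries held under 10 reads of it. No other precursor among the 10 miRNAs had both arms tested.

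**Figure D2:**
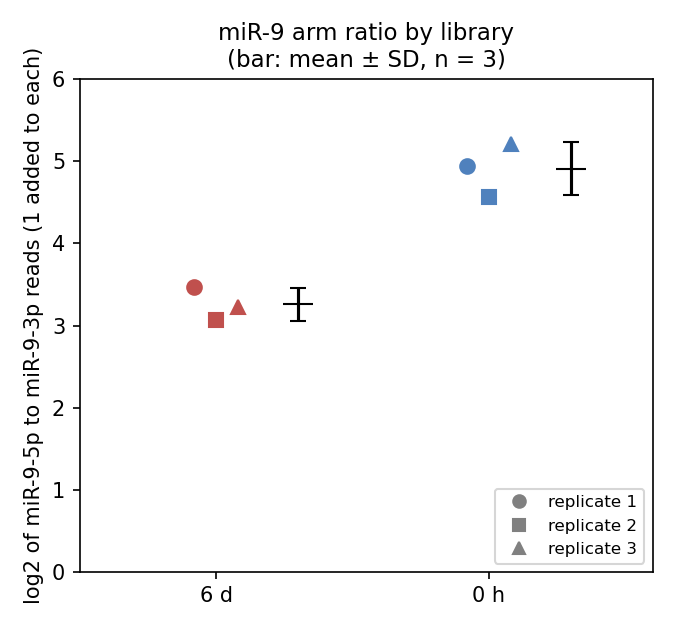
Log2 ratio of miR-9-5p to miR-9-3p reads in each library of 6 d (red) and 0 h (blue), with mean ± SD beside the points. The 6 d ratios lie between 3.07 and 3.47 and the 0 h ratios between 4.57 and 5.21.

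miR-124, the miRNA that defines mature neurons, was almost absent. miR-124-3p had 0, 0 and 7 reads in the 6 d libraries and 0, 3 and 10 at 0 h, and miR-124-5p had 0 at 6 d and 1, 4 and 2 at 0 h. In normalised CPM miR-124-3p was at 6.32 in 6 d replicate 3 and at most 1.54 at 0 h. Its pooled 6 d level was 3.3 times that of 0 h (95% exact interval 1.12 to 8.91, counting error only), and this rested on 6 d replicate 3 alone, without which there were 0 reads at 6 d.

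Ratios between these miRNAs do not depend on the scaling. The log2 ratio of miR-375-3p to miR-128-3p reads was -5.26, -4.45 and -5.17 at 6 d and -9.41, -10.26 and -9.96 at 0 h. Its difference of 4.92 had an exact two-sided permutation p of 0.1 (0.13 adjusted over 4 ratios). That of miR-375-3p to miR-9-5p was -1.58, -1.39 and -3.78 at 6 d and -6.14, -7.88 and -7.67 at 0 h, a difference of 4.98 with the same exact permutation p of 0.1 (0.13 adjusted). Neither ratio overlapped between the intervals. For miR-375-3p to miR-128-3p this adds nothing to the levels, since these miRNAs already separated in opposite directions. How many other pairs of miRNAs had ratios without overlap was not counted. The log2 ratio of miR-9-5p to miR-128-3p was -3.67, -3.05 and -1.39 at 6 d and -3.27, -2.38 and -2.30 at 0 h, and its difference of -0.05 lay within the spread (exact permutation p = 1).

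**Figure D3:**
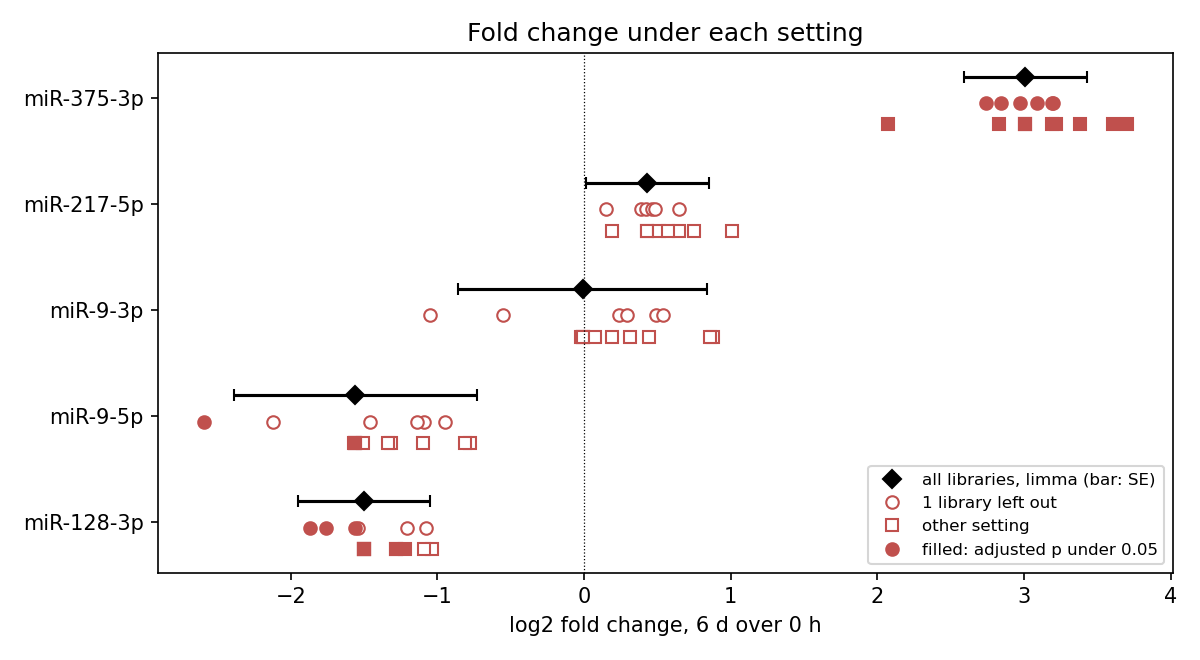
Log2 fold change of 6 d over 0 h for the 5 tested miRNAs, with the limma value and its SE (black), values with 1 library left out (circles) and values under other settings (squares), filled, and drawn on top, where the adjusted p is under 0.05. All values of miR-375-3p are filled and lie between 2.07 and 3.70, while those of miR-9-3p lie on both sides of 0.

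Within each interval these miRNAs were mostly highest in replicate 3. 6 d replicate 3 was the highest 6 d library for all 5 tested ones, against 32.8% of the 470 tested miRNAs. The share over all tested depends on the scaling. This library had a factor of 1.796, against 0.831 and 1.080, so plain CPM raises it relative to both others. How many of the 470 miRNAs would then be highest in it was not counted. At 0 h, replicate 3 was likewise the highest library of its group for 4 of the 5, against 48.5% of all tested. For miR-9-3p the highest level exceeded the lowest 10.6-fold at 6 d and 3.6-fold at 0 h, and for miR-9-5p 9.81-fold at 6 d and 4.21-fold at 0 h. For miR-128-3p it did so 3.03-fold at 6 d and 2.14-fold at 0 h, and for miR-375-3p 1.91-fold at 6 d and 2.04-fold at 0 h. On the log2(value + 1) scale miR-9-3p stood 3.08 and miR-9-5p 2.91 above the higher of the other 6 d libraries, the second and the third of 470 ranked by this excess. The first was miR-219a-2-3p, from a precursor family known from oligodendrocytes, with 2, 2 and 39 reads at 6 d and 7, 208 and 61 at 0 h. It is not in the list of other neural miRNAs below. Next after miR-9-5p came miR-543-3p (2.87), miR-129-5p (2.69), miR-383-5p (2.35) and miR-770-3p (2.11). Of these, miR-543-3p and miR-770-3p are in none of the lists.

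**Figure D4:**
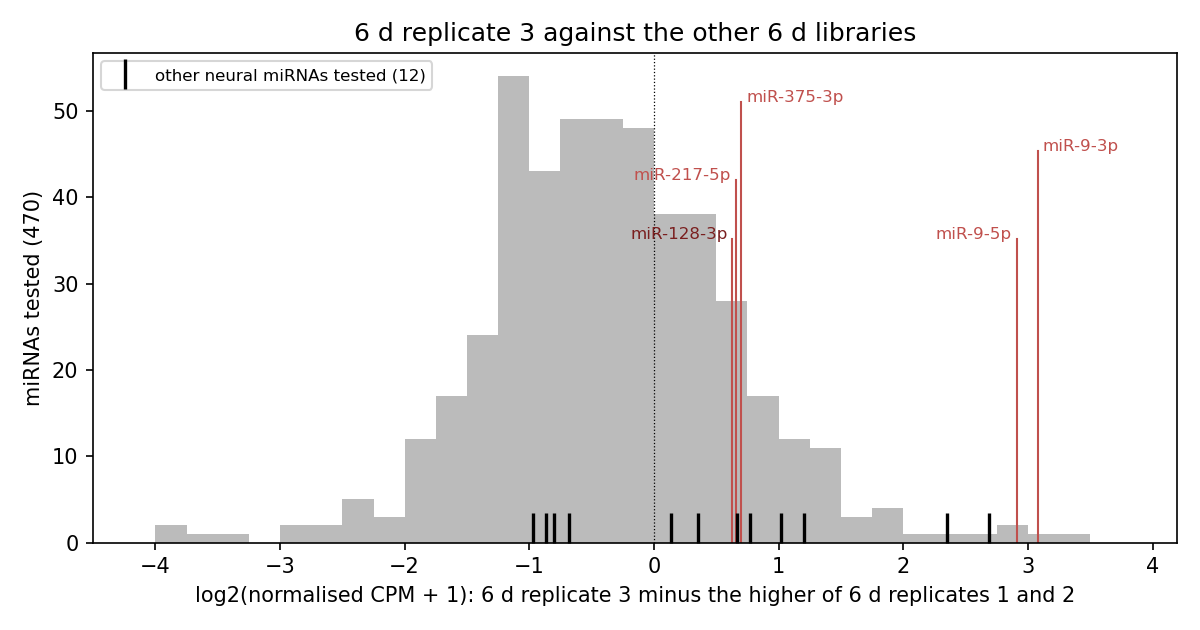
Histogram over the 470 tested miRNAs of the log2(normalised CPM + 1) of 6 d replicate 3 minus the higher value of the other 6 d libraries, with the 5 tested miRNAs as red lines and 12 other neural miRNAs as black ticks. miR-9-5p and miR-9-3p lie at the right end, at 2.91 and 3.08, and 8 of the 12 ticks lie above 0.

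Other neural miRNAs were called in both directions between the intervals, and few were called. Of 18 listed, with miR-124-3p among them, 17 had a row and 12, without miR-124-3p, were tested. Among them 1 was called higher at 6 d, miR-7a-5p (against 16.0% of all tested), and 2 lower, miR-184-3p and miR-212-5p (against 21.9%). Their median log2 fold change was -0.73, against -0.33 over all tested. edgeR also called 1 higher and 2 lower, of 11 tested, against 22.0% and 19.6% of all that it tested. The summed level of the list was 1315 to 1931 normalised CPM at 6 d and 986 to 1711 at 0 h. Most of that sum in every library was miR-7a-5p and miR-218-5p, so it says little of the others. miR-212-5p, from the activity-induced miR-212 and miR-132 locus of neurons, had 3.18, 6.62 and 14.4 normalised CPM at 6 d and 20.2, 26.8 and 39.2 at 0 h (log2 fold change -1.86, limma adjusted p = 0.02). Other strands of the locus did not share its call. miR-132-3p was at -0.67 (limma adjusted p = 0.19), and the low-level miR-212-3p at 0.01 (limma adjusted p = 0.99).

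Within the 6 d group 8 of these 12 (66.7%) were highest in replicate 3, and within the 0 h group 9 (75.0%) were, against 32.8% of all tested miRNAs at 6 d and 48.5% at 0 h. At 6 d, 4 (33.3%) stood at least 1 above both other libraries on the log2 scale, against 7.87% of all tested miRNAs. These 6 d shares too are those of the normalised scale and were not counted as plain CPM. The brain miRNA miR-129-5p had 7, 3.97 and 50.5 normalised CPM at 6 d and 20.7, 28.3 and 63.4 at 0 h, and miR-383-5p had 0, 1.32 and 10.8 at 6 d and 1.46, 6.49 and 6.64 at 0 h. Not all neural miRNAs followed. miR-218-5p was at 541, 314 and 337 at 6 d and miR-7a-5p was lowest in replicate 3. The summed level of the 7 muscle miRNAs was lowest in the same library, at 114428 normalised CPM against 537146 and 315610. Nearly all of that sum was miR-1a-3p, at 532712, 310234 and 110064 at 6 d. miR-206-3p, miR-208b-3p and miR-499-5p were also lowest in replicate 3, while miR-133a-3p, miR-133b-3p and miR-208a-3p were not. The part of nerve tissue in that sample was not tested.

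For each tested miRNA the 3 miRNAs outside the group with the most similar profile over the 6 libraries were found by Pearson's r of log2(value + 1), a description in which all points share library, depth and scaling. miR-375-3p was most like miR-181b-5p (r = 0.997), at 923, 798 and 1226 normalised CPM at 6 d and 290, 290 and 342 at 0 h. It was followed by miR-374c-5p (r = 0.985) and miR-374b-5p (r = 0.984), whose reads differ by at most 2 in every library and cannot be told apart. miR-128-3p was most like miR-204-5p (r = 0.990), which averaged 47.1 ± 19 normalised CPM at 6 d and 97 ± 38.1 at 0 h (SD, n = 3 each), then miR-1249-3p (r = 0.990) and miR-7043-3p (r = 0.964). miR-9-5p was most like miR-129-5p (r = 0.981), then miR-150-5p (r = 0.964) and miR-487b-3p (r = 0.951). miR-9-3p was most like miR-339-5p (r = 0.944), miR-135b-5p (r = 0.909) and miR-219a-2-3p (r = 0.902), and miR-217-5p most like miR-7b-5p (r = 0.924), miR-34c-3p (r = 0.911) and miR-181a-5p (r = 0.876). Some of these likenesses rest on few reads at 6 d. There were 2, 0 and 2 of miR-1249-3p, 2, 0 and 3 of miR-7043-3p, 2, 1 and 2 of miR-487b-3p, and 2, 1 and 5 of miR-34c-3p. Among the 5 themselves r was highest for miR-128-3p with miR-9-5p (0.88) and for the arms of miR-9 (0.83), and lowest for miR-375-3p with miR-128-3p (-0.67).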

How the data were processed

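Small RNA libraries were made with a NEBNext kit from Trizol-extracted RNA, per the labels' protocols. The submitters' processing notes name STAR 2.5.3a, cutadapt 2.8, Trimmomatic 0.39 and FastQC without their roles. Genome build and counting tool: not given in the sources used here. A single deposited file (0 h replicate 1) gives read counts, while the authors deposited the remaining 5 libraries as log2(scaled reads + 1) to 3 decimals. Undoing the log2 gave whole multiples of 1 step per library for 2692 of 2692 values that could be tested (within rounding, where it spans under 0.5 of a read), so reads were recovered, and the counts were put on the same scale with a derived factor of 0.919. Blank rows (1604 per file) were dropped. The unit mixture was known when the tests were set.

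The main test was limma 3.58.1 (trended prior, robust) on log2(value + 1), with Benjamini-Hochberg adjustment over 470 miRNAs, and the same on log2 arm ratios. edgeR 4.0.16 and DESeq2 1.42.0 were alternatives, and single ratios had exact permutation tests (scipy 1.17.1). The limma fit of levels was tested on simulated counts. The members and lists were chosen with earlier results of these data known. Named were all 10 rows, the 3 most similar miRNAs to each tested one, and examples from the lists.

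Beside the lists described above, 1 of 1 tested liver miRNAs, 3 of 7 cardiac and skeletal muscle miRNAs and 1 of 4 erythrocyte miRNAs were called higher at 6 d, 2 of the muscle list and 1 of 2 endothelial miRNAs lower, and 0 of 5 leukocyte miRNAs were called (edgeR called 2 of 5 higher). Over all tested miRNAs limma called 16.0% higher and 21.9% lower, and edgeR 22.0% higher.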

Additional observations from a re-analysis of the deposited data

How the results depend on the processing

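Depth limits the miRNAs with few reads. Over all tested miRNAs the median log2 fold change was -0.33 as deposited, -0.17 after RLE scaling and 0.02 when only library totals were used. The rise of miR-375-3p kept its call in all 16 alternatives (log2 fold change 2.07 to 3.70, 2.74 to 3.20 with 1 library left out). miR-217-5p was called in none of 14 (0.15 to 1.01). The fall of miR-128-3p kept its call in 10 of 16 alternatives, with RLE scaling just past the threshold (-1.28, adjusted p = 0.0496). The call was lost under edgeR (-1.28), plain library totals (-1.04) or thinning of all libraries to 617069 reads (-1.09), and the fold change ranged from -1.87 to -1.08 with 1 library left out. miR-9-5p ranged from -2.59 to -0.95 with 1 library left out and became called without 6 d replicate 3 and with the replicate block (-1.56, adjusted p = 0.004). miR-9-3p, never called, changed sign with RLE factors (0.19), library totals alone (0.44), a pseudocount of 5 (0.074), edgeR (0.86), DESeq2 (0.88) and thinning (0.31), and ranged from -1.05 to 0.54 with 1 library left out. The miR-9 arm ratio difference ranged from -1.82 to -1.50 with 1 library left out and was -1.95 with 5 reads added to each arm. The difference in the log2 ratio of miR-9-5p to miR-128-3p ranged from -0.71 to 0.43 with 1 library left out. The cause was not tested. The count of 178 called miRNAs ranged from 114 (without 0 h replicate 1) to 179 with 1 library left out and was 195 with the replicate block. Deviations of same-numbered libraries from their group means correlated at 0.07, 0.06 and 0.27, and those of unlike-numbered ones at -0.22 to 0.16. The highest value was that of replicate 3 with replicate 3. These values do not settle whether the numbers mark pairs, and the main test did not treat them as pairs. The block changed no other call on these miRNAs.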
